A study of Mus musculus with 536 samples.

Results

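The 4 transcription regulators of the B lineage described here, Pou2af1, Spib, Ebf1 and Bcl11a, were followed in the peripheral blood of mice after total body irradiation. They were taken by name from a table of 12393 measured genes, and all 4 were present. Where a gene had several probe sets, the brightest one, by its mean over the arrays, was used. Pou2af1 encodes a coactivator, known as OCA-B, that binds DNA only together with the POU factors on octamer elements and is needed for germinal centres. Spib encodes Spi-B, an ETS family relative of PU.1 that acts in B cells and plasmacytoid dendritic cells. Ebf1 encodes a DNA-binding factor that, with Pax5, sets up the B cell programme and the genes of the B cell receptor. Bcl11a encodes a zinc finger repressor that early lymphoid progenitors need to form B cells, and that silences embryonic globin genes in red cell precursors. Mature B cells of the blood are among the cells most sensitive to radiation.

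The mice were C57BL/6 animals 10 to 12 weeks old of both sexes. Each had received a single total body exposure to a Cs137 source, or 0 cGy, and was bled once by terminal cardiac puncture into PAXgene fluid. Globin-reduced RNA of whole blood was hybridised to Affymetrix Mouse 430A 2.0 arrays, and the deposited values are log2 signals, on which a difference of 1 stands for a factor of 2. The arrays come from 534 mice in 4 sets. The dose-time set held 240 mice with no agent in 48 groups of 5, at doses of 0, 100, 200 and 300 cGy and of 450, 600, 800 and 1050 cGy, each bled at 6, 24, 48, 72, 120 and 168 hr. The sex and agent set held 48 groups of 3 to 5 females or males. They had been given GCSF (granulocyte colony-stimulating factor, which raises neutrophil output), LPS (lipopolysaccharide, a bacterial wall component) or no agent, at 0, 200, 300 or 600 cGy and at 6 or 24 hr. The small agent set held 50 mice in 9 groups of 5 to 6, given GCSF, LPS or no agent at 0, 150 or 600 cGy and bled at 6 hr. The 7 day set held 10 mice bled 168 hr after 150 cGy and 3 mice bled 168 hr after 0 cGy, beside 0 cGy mice at 6 hr (3) and 24 hr (2). The labels give the sex as unknown in all but the sex and agent set, and the doses and routes of the agents are not given in the sources used here.

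The number of mice per group limits the precision of each value, and the p-values rest on the spread between separate mice. In the limma fits this spread is 1 estimate per gene shared by all groups of a set, not that of the groups compared. Group spreads were unlike: the SD of Pou2af1 was 0.19 at 0 cGy and 120 hr and 1.17 after 600 cGy at 24 hr. Whole blood was measured, so fewer B cells and less RNA per B cell cannot be told apart in any value that follows. At 6 hr the mean of 4 B cell markers (Cd79a, Cd79b, Ms4a1 and Cd22) was 6.25 to 7.03 after 600 cGy and 10.51 to 10.93 at 0 cGy. The blood of these unirradiated mice thus held clear B cell signal. The liver transcript Alb, which blood cells do not make, was at 10 or more in 116 of 240 mice of the dose-time set, in 61 mice of the sex and agent set, in 23 of 50 of the small agent set and in 3 of 18 of the 7 day set. Its part in the results was not tested, and its values stand beside the results they move with.

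Promoter sequences were set beside the expression values because the levels of Pou2af1 and Spib moved together most closely, as described further on. They are RefSeq sequences of the mouse assembly GRCm38.p6, from 250 bases before to 50 bases after a start that the table gives for the gene, written 5′ to 3′ on the strand of the gene. All 4 genes matched, and Ebf1 had 2 promoter entries. The starts used for Spib, for Bcl11a and for the second Ebf1 entry lie inside the span of the gene given further on. The capitals mark TGCAAAT, the last 7 bases of the octamer to which Pou2af1 is recruited, and GAGGAA, the ETS core preferred by Spi-B and PU.1. The Pou2af1 promoter lies at chr9:51213440-51213739 on the plus strand, and the Spib promoter at chr7:44532022-44532321 on the minus strand.
Pou2af1: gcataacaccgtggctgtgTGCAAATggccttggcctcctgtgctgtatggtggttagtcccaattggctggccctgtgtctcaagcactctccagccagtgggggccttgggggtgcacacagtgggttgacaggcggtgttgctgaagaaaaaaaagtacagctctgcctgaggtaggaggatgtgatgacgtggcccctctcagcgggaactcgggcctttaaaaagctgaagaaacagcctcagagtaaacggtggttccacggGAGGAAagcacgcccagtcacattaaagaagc
Spib: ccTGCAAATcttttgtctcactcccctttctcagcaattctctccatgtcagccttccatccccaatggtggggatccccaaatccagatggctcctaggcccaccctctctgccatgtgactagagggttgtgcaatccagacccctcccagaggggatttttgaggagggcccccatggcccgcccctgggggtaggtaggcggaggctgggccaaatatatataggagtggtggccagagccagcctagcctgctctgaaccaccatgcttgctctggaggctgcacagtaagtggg
TGCAAAT began 231 bases before the start used for Pou2af1 and 248 bases before that used for Spib, and 4.02% of all 32851 promoters held it on either strand. This shorter motif was searched after the sequences had been seen. The full octamer ATGCAAAT, held by 1.74% of promoters, was in none of the members' windows. GAGGAA, held by 28.3% of promoters, stood at base 19 after the start of Pou2af1 and, on the other strand, 130 bases before an Ebf1 start. These matches describe the letters of the windows only.

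In blood of mice with no irradiation all 4 genes gave signal. The 30 mice at 0 cGy of the dose-time set had a lowest, median and highest level of 8.39, 9.70 and 10.47 for Pou2af1 and of 8.24, 9.49 and 10.00 for Spib. For Ebf1 they were 6.21, 7.35 and 8.51, and for Bcl11a 5.66, 7.04 and 8.39. Over all arrays the mean of the Pou2af1 probe set was above that of 81.3% of genes and the Spib probe set above 74.9%. The Ebf1 and Bcl11a probe sets lay lower, above 40.1% and 36.3% of genes, so a fall had less room on the scale. The genes lie on chromosome 9 (Pou2af1, bases 51213690 to 51240079), chromosome 7 (Spib, 44525995 to 44532087) and chromosome 11 (Ebf1, 44618100 to 45008096, and Bcl11a, 24076564 to 24173558) of GRCm38.p6. The 0 cGy level itself differed between the 6 times for Ebf1 (adjusted p = 1.17e-04, moderated F test) and Bcl11a (adjusted p = 3.68e-09), as it did for 50.3% of all genes. Ebf1 averaged 8.06 ± 0.43 at 120 hr and 6.66 at 48 hr, and Bcl11a 7.99 ± 0.43 at 120 hr and 6.20 at 48 hr (SD, n = 5 each). Pou2af1 (adjusted p = 0.309) and Spib (0.199) did not pass this test, though they did when only the 0 cGy groups entered the fit. The 0 cGy mice of a time are therefore the comparison for the irradiated mice of that time.

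At 6 hr all 4 regulators were lower the higher the dose. The slope of the group means on dose passed the test downward in 4 of 4 members, against 18.5% of all genes, and leaving out any of the 5 array runs kept 4. Pou2af1, the coactivator, had the steepest slope, at −0.43 ± 0.04 log2 units per 100 cGy (SE, adjusted p = 1.79e-19). Spib followed at −0.31 ± 0.04 (adjusted p = 7.85e-14). The slopes of Ebf1 (−0.16 ± 0.02, adjusted p = 2.30e-11) and Bcl11a (−0.13 ± 0.02, adjusted p = 1.50e-09) were shallower.

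Most of the fall of Ebf1 and Bcl11a was already there at the lowest dose, whereas Pou2af1 went on falling. In the 5 mice given 600 cGy, Pou2af1 read 3.88, 3.94, 3.99, 4.97 and 5.22, against 9.13, 9.44, 9.47, 9.68 and 9.87 in the 0 cGy mice. In the 5 mice given 100 cGy it read 6.44, 6.97, 7.83, 7.93 and 8.38. The mice of both doses were below every 0 cGy mouse, and the 600 cGy mice were also below all those given 100 cGy. From 0 to 1050 cGy the group means of Pou2af1 ran 9.52, 7.51, 6.84, 5.63, 5.49, 4.40, 4.69 and 4.32. The difference between 600 and 0 cGy was −5.12 ± 0.54 (adjusted p = 3.38e-15). It was called in 4 of 4 members at 6 hr, against 23.2% of genes called lower, and by size that of Pou2af1 ranked 1 among the falls of all 12393 genes, Spib 10, Ebf1 92 and Bcl11a 114.

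Spib, the ETS factor, read 4.59, 5.07, 5.11, 5.59 and 5.96 in the 600 cGy mice at 6 hr, against 8.94, 9.14, 9.26, 9.48 and 9.49 in the 0 cGy mice, a difference of −4.00 ± 0.49 (adjusted p = 3.06e-12). Its 100 cGy mice lay between these groups, at 6.15, 6.80, 7.01, 7.65 and 7.72. The ranges did not meet at either dose. Ebf1 read 4.85, 5.10, 5.16, 5.21 and 5.38 in the 600 cGy mice, against 6.87, 7.25, 7.33, 7.63 and 7.78 in the 0 cGy mice (−2.24 ± 0.27, adjusted p = 2.49e-12). Bcl11a read 4.52, 4.61, 4.62, 4.97 and 5.06 after 600 cGy, against 6.40, 6.88, 6.91, 6.98 and 6.99 at 0 cGy (−2.08 ± 0.24, adjusted p = 5.56e-13). Both groups were apart for these members too. Within each of the 5 array runs, which hold 1 mouse of every group, all 4 genes were lower at 600 than at 0 cGy, by −5.88 to −4.16 for Pou2af1, −4.88 to −2.98 for Spib, −2.57 to −1.49 for Ebf1 and −2.47 to −1.80 for Bcl11a.

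**Figure D1:**
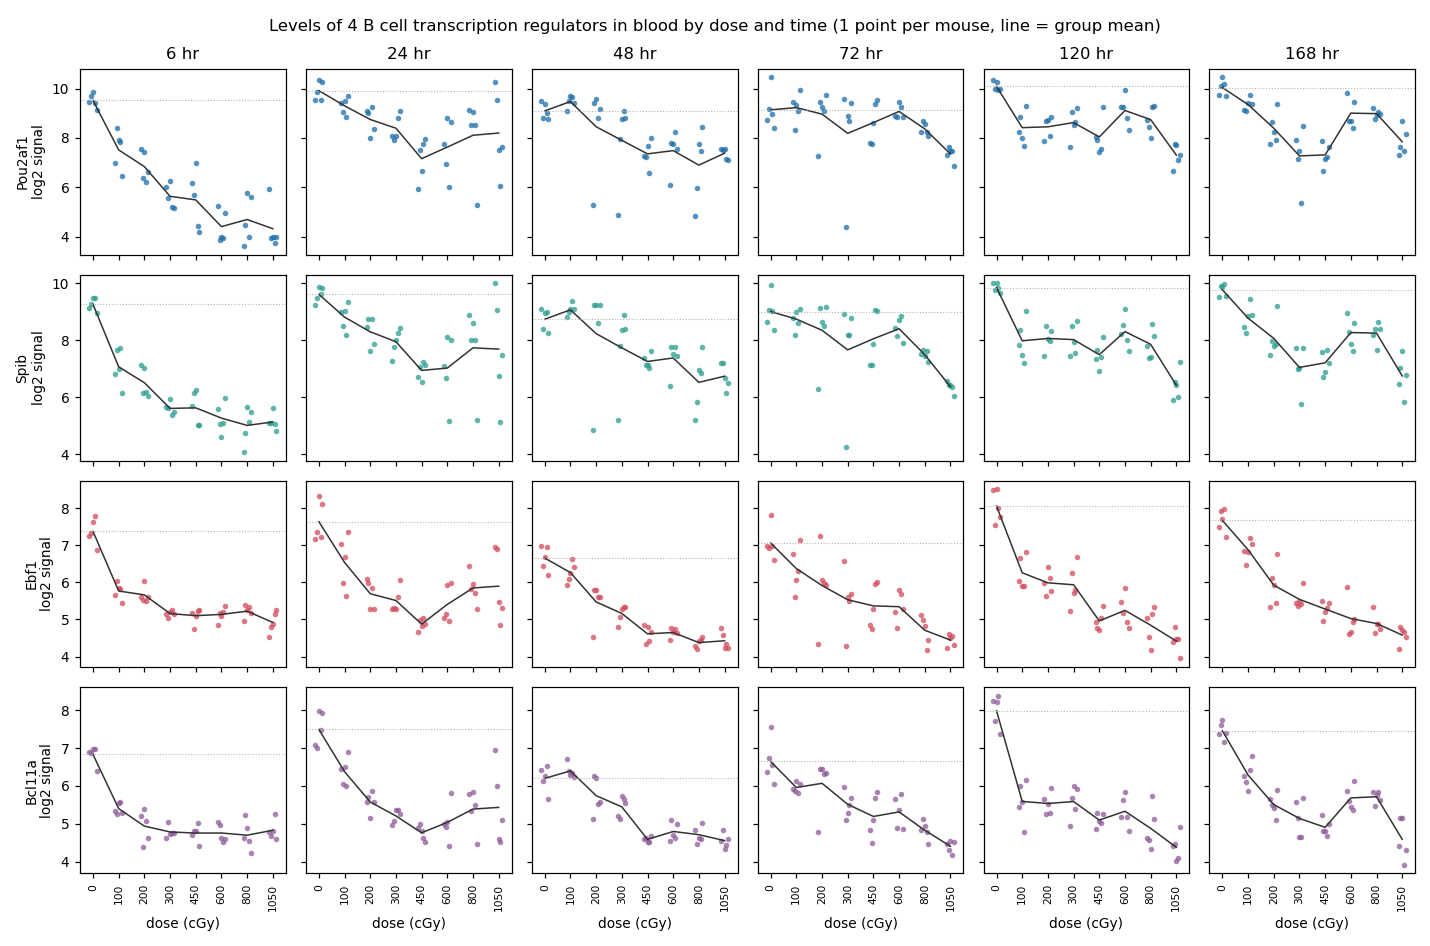
Levels of the 4 genes (rows) at the 6 times (columns) in the dose-time set, as log2 signal against dose in cGy with the 8 doses evenly spaced. Points are single mice (5 per group), lines join group means and the dotted line is the 0 cGy mean of that time. At 6 hr Pou2af1 goes down to a mean of 4.32 at 1050 cGy, against 9.52 at 0 cGy, while at 72 hr its 600 cGy mean (9.07) sits at the 0 cGy mean (9.14).

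How much dose mattered beyond 100 cGy was read from the difference between the ends of the irradiated range. At 6 hr Pou2af1 was lower at 1050 than at 100 cGy by −3.19 (adjusted p = 1.88e-06), Spib by −1.94 (adjusted p = 0.00315) and Ebf1 by −0.85 (adjusted p = 0.0299). Bcl11a differed by −0.57 and did not pass (adjusted p = 0.135). These 3 of 4 calls at 6 hr stand against 3.89% of all genes called lower. The Ebf1 call was lost without the mice of array run 2, 3 or 4 (runs numbered in the order of their codes), with adjusted p of 0.159, 0.17 and 0.1, and with the mean of probe sets (0.154). Over the 6 times 19 of 24 such differences were called lower, against 20.8% over all genes, and 16 to 22 when a run was left out.

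At the later times the dose slope stayed downward for all 4 at every time, with 4 of 4 called at 24, 48, 72, 120 and 168 hr, where 19.8%, 23.3%, 27.1%, 47.0% and 46.6% of all genes were called lower. For Pou2af1 it was −0.16 at 24 hr, −0.21 at 48 hr, −0.14 at 72 hr, −0.13 at 120 hr and −0.10 at 168 hr, shallower at every time than the −0.43 of 6 hr. Its call at 24 hr was lost without run 5 (−0.12, adjusted p = 0.0583) and at 168 hr without run 2 (−0.09, adjusted p = 0.0519). For Ebf1 the slope was −0.11 at 24 hr and grew to −0.21, −0.22, −0.27 and −0.26 at the later times. Spib (−0.17, −0.23, −0.20, −0.20 and −0.17) and Bcl11a (−0.14, −0.18, −0.19, −0.23 and −0.17) both lay between these at 72, 120 and 168 hr. At 24 hr the mean fall was not largest at the highest dose. The differences from 0 cGy at 450 and 1050 cGy were −2.8 and −1.7 for Pou2af1 and −2.7 and −1.9 for Spib. For Ebf1 they were −2.8 and −1.7, and for Bcl11a −2.7 and −2.1. The 1050 cGy mice were widely spread, with differences within array runs of −3.48 to 0.74 for Pou2af1 and −4.49 to 0.75 for Spib. With only the groups compared in the limma fit, their 1050 cGy calls were lost (adjusted p = 0.136 and 0.135). Whether the 450 and 1050 cGy groups differ was not tested. A moderated F test of equal slopes over the 6 times was passed by all 4, with F = 9.38 for Pou2af1 (adjusted p = 8.0e-08), 10.0 for Ebf1 (2.45e-08), 4.03 for Bcl11a (0.00197) and 2.34 for Spib (0.0467), but 92.3% of all genes passed it. The Spib call was lost without run 1 (adjusted p = 0.139), run 2 (0.262) or run 3 (0.139) and after median centring (0.0522). The Bcl11a call was lost without run 2 (0.0526) and after quantile normalisation (F = 1.32, adjusted p = 0.271).

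After 600 cGy the members were close to each other at 24 hr and apart from 72 hr on. At 24 hr all 4 were still lower, by −2.29 for Pou2af1 (adjusted p = 4.07e-04), −2.59 for Spib, −2.23 for Ebf1 and −2.46 for Bcl11a, against 17.5% of genes called lower. Pou2af1 read 6.00, 6.95, 7.76, 8.64 and 8.79 in these mice, against 9.52, 9.53, 9.88, 10.28 and 10.37 in the 0 cGy mice, so the groups were still apart but closer. At 48 hr the differences were −1.61, −1.36, −2.01 and −1.40 in the same gene order, all called, against 22.8% of genes. The 48 hr calls of Pou2af1 and Spib were lost without run 1 (adjusted p = 0.062 and 0.068), and that of Spib without run 3 (0.0569). Both were lost without mice whose Alb was at 10 or more (−1.38, adjusted p = 0.196, and −1.11, 0.215).

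At 72 hr Pou2af1 read 8.86, 8.87, 8.91, 9.26 and 9.47 after 600 cGy, against 8.39, 8.71, 8.95, 9.18 and 10.47 at 0 cGy. The irradiated values lay inside the 0 cGy range, and the difference was −0.06 ± 0.54 (adjusted p = 0.926). Spib read 7.90, 8.15, 8.42, 8.70 and 8.87 after 600 cGy, against 8.38, 8.64, 9.02, 9.08 and 9.94 at 0 cGy, with overlap between the groups (−0.60, adjusted p = 0.284). Within each of the 5 array runs Spib was lower at 600 than at 0 cGy, by −1.24 to −0.15. At 1050 cGy Pou2af1 (−1.79) and Spib (−2.64) were called lower at 72 hr. That Pou2af1 call was lost without mice whose Alb was at 10 or more (adjusted p = 0.0656). Ebf1 and Bcl11a were still called lower after 600 cGy at this time. Ebf1 read 4.76, 5.21, 5.28, 5.69 and 5.79 after 600 cGy, against 6.59, 6.93, 6.99, 6.99 and 7.80 at 0 cGy (−1.72). Bcl11a read 4.86, 4.89, 5.37, 5.65 and 5.79 after 600 cGy, against 6.04, 6.36, 6.54, 6.74 and 7.54 at 0 cGy (−1.33, adjusted p = 8.65e-07). Neither gene's groups overlapped, and the calls of 2 of 4 members at 72 hr stand against 31.3% of genes called lower. Without mice whose Alb was at 10 or more the Bcl11a difference was −0.79 (adjusted p = 0.151).

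At 120 hr the changes of Ebf1 and Bcl11a were not told apart (−0.16, adjusted p = 0.542, exact permutation test). At 168 hr Ebf1 was the member furthest below its 0 cGy mice. It read 4.78, 4.94, 5.18, 5.47 and 5.86 at 120 hr after 600 cGy, against 7.55, 7.75, 8.0, 8.48 and 8.51 at 0 cGy, a difference of −2.81 ± 0.27. At 168 hr it read 4.61, 4.66, 4.94, 5.01 and 5.89 after 600 cGy, against 7.22, 7.50, 7.72, 7.94 and 7.97 at 0 cGy (−2.64 ± 0.27). The irradiated and unirradiated mice were far apart at both times. Bcl11a differed by −2.66 ± 0.24 at 120 hr and −1.77 ± 0.24 at 168 hr, where it read 5.36, 5.44, 5.61, 5.87 and 6.13 after 600 cGy, against 7.17, 7.37, 7.39, 7.60 and 7.74 at 0 cGy. Spib differed by −1.55 (adjusted p = 0.00478) and −1.50 (adjusted p = 0.00731), and its 168 hr call was lost without run 3 or 4 (0.0527 and 0.0548). Pou2af1 read 8.32, 8.79, 9.24, 9.25 and 9.96 at 120 hr after 600 cGy, against 9.93, 9.96, 9.96, 10.26 and 10.33 at 0 cGy, so a single irradiated mouse reached the 0 cGy range. Within array runs Pou2af1 was lower at 600 than at 0 cGy in 5 of 5 at 120 hr (−1.65 to −0.30). At 168 hr it was lower in 4 of 5 (−1.78 to 0.09). Its differences of −0.98 (adjusted p = 0.132) and −1.03 (adjusted p = 0.115) did not pass. Thus 3 of 4 members were called lower at each time, against 22.6% and 21.7% of genes.

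The dose order was not smooth at the late times either. At 168 hr the Pou2af1 means from 0 to 1050 cGy were 10.04, 9.35, 8.39, 7.27, 7.31, 9.01, 8.98 and 7.85, so the 600 and 800 cGy groups lay above those at 300 and 450 cGy. The 5 mice given 800 cGy read 8.77, 8.91, 8.96, 9.05 and 9.23, against 9.71, 9.72, 10.12, 10.17 and 10.47 at 0 cGy, and those given 300 cGy read 5.36, 7.14, 7.47, 7.91 and 8.47. The same shape was seen in Spib (9.77, 8.78, 8.07, 7.05, 7.21, 8.27, 8.25 and 6.75). Bcl11a shared it, with differences from 0 cGy of −1.17, −1.95, −2.32, −2.55, −1.77, −1.74 and −2.87 in rising dose order. Only the Ebf1 means went down throughout (7.67, 6.88, 5.92, 5.54, 5.28, 5.02, 4.89 and 4.58). Alb, the liver transcript, averaged 7.26, 9.09, 9.35 and 7.98 in the groups from 0 to 300 cGy and 13.14, 14.48, 14.64 and 14.55 in those from 450 to 1050 cGy at 168 hr. At 120 hr it was 6.33 to 8.29 up to 300 cGy and 12.49 to 14.64 from 450 cGy, while at 6 hr every group mean was between 5.84 and 7.35. Its part in the late dose order was not tested.

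At 100 cGy, the lowest dose, all 4 genes were lower at 6 hr, by −2.0 for Pou2af1, −2.20 for Spib, −1.61 for Ebf1 and −1.43 for Bcl11a, against 17.4% of genes called lower. At 24 hr Ebf1 (−1.10) and Bcl11a (−1.12) were called, against 1.16% of genes, and Pou2af1 (−0.62) and Spib (−0.80) were not. Whether the members differ from each other at this dose was not tested. The 24 hr call of Ebf1 was lost without run 3 or 4 (adjusted p = 0.0645 and 0.058). At 48 hr limma's test called none of the 4 (0 at an unadjusted p under 0.05) and at 72 hr Bcl11a alone (−0.69, adjusted p = 0.0406), where 18.2% and 4.35% of genes were. That Bcl11a call was lost without run 2, 3 or 4 (adjusted p = 0.112, 0.221 and 0.117), after median centring (0.0724) or quantile normalisation (0.0846), with only the groups compared (0.101) and without high Alb (−0.45, 0.243). At 120 hr all 4 were called again, by −1.67, −1.87, −1.80 and −2.40, against 31.7% of genes, though Pou2af1 was not after quantile normalisation (−1.13, adjusted p = 0.0591). Counting all 7 doses and 6 times, 140 of 168 differences from 0 cGy were called, all of them lower, against 43.2% called in either direction over all genes, and 126 to 139 when a run was left out. The 28 others were at 100, 200 and 300 cGy at 24, 48, 72 and 168 hr, or were Pou2af1 or Spib at 72 hr and Pou2af1 at 600 or 800 cGy at 120 or 168 hr.

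The members' changes were then set against those of the B cells' surface and receptor genes, to see whether the regulators did more than fall with that group. The mean of 13 surface genes, among them Cd79b, Ms4a1, Cd22 and Fcer2a, was taken away from each member in each mouse. Its own 600 minus 0 cGy change was −2.75, −2.28, −1.39, −1.18, −2.16 and −1.76 at the 6 times. By exact permutation tests of 5 mice against 5, two-sided and adjusted over 24 comparisons, 13 of 24 differed, 6 of them downward. The smallest p such a test can give is 0.00794, and all 13 kept their sign when each run was left out. With 4 mice against 4 the smallest p is 0.0286, and none of the 24 passed the adjustment without any of the 5 runs.

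At 6 hr Pou2af1 fell by more than the surface mean (−2.37 ± 0.28, SE, adjusted p = 0.0212 by the exact test), and so did Spib (−1.25 ± 0.23). Ebf1 (0.51 ± 0.16, adjusted p = 0.0440) and Bcl11a (0.67 ± 0.08, 0.0212) fell by less. Both genes started lower at 0 cGy, at 7.37 and 6.83 against 9.52 for Pou2af1, which left less room on the scale for a fall. How far this shaped the differences was not tested. At 72 and 120 hr Pou2af1 stood above the surface mean's change by 1.12 ± 0.23 and 1.18 ± 0.17, and Spib by 0.58 ± 0.14 and 0.61 ± 0.12. Ebf1 stood below it by −0.53 ± 0.18 and −0.65 ± 0.19, and at 168 hr by −0.88 ± 0.19. These late Ebf1 values rest on the probe set used: with all its probe sets averaged they were −0.07 (adjusted p = 0.599), 0 (0.984) and −0.30 (0.165), while Pou2af1 stayed called at 1.09, 1.15 and 0.66 at these times. Bcl11a did not differ from it beyond the test at 24 to 168 hr. None of the 4 did at 24 hr. The choice of comparison group mattered. Against the 4 markers Cd79a, Cd79b, Ms4a1 and Cd22, which are all among the 13 and changed by −4.14 at 6 hr, Spib differed by 0.15 (adjusted p = 0.538), Pou2af1 by −0.97, Ebf1 by 1.91 and Bcl11a by 2.07. Against these markers the calls of Ebf1 at 48 hr (−0.21, against −0.62 with the 13 genes) and Pou2af1 at 168 hr (0.50, adjusted p = 0.0586) were also lost, and Spib at 48 hr (0.44, adjusted p = 0.0212) and Bcl11a at 120 hr (−0.56, 0.0317) were gained.

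**Figure D2:**
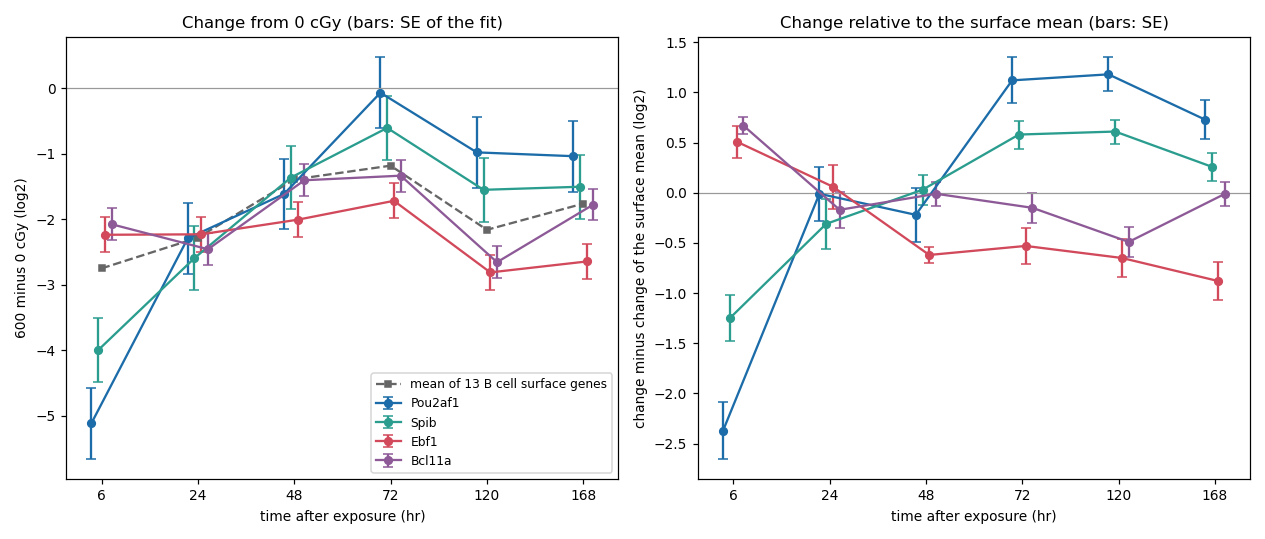
Left, the 600 minus 0 cGy difference (log2) of the 4 genes at 6 to 168 hr with bars of 1 SE, and the mean of the 13 surface genes dashed. Right, the same differences relative to that mean, with 1 SE over 5 mice a group; Pou2af1 is at −2.37 at 6 hr and at 1.18 at 120 hr, and Ebf1 at 0.51 and −0.65.

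Set against each other, 21 of 36 pairs of changes differed by the exact test, adjusted over 36. The change of Pou2af1 minus that of Ebf1 was −2.88 ± 0.34 at 6 hr, 1.65 at 72 hr, 1.83 at 120 hr and 1.61 at 168 hr. Pou2af1 also differed from its closest partner Spib, by −1.12 at 6 hr and by 0.54, 0.57 and 0.47 at 72, 120 and 168 hr. Ebf1 and Bcl11a changed by amounts that were not told apart at 6 hr (−0.16, adjusted p = 0.562) and differed by −0.60 at 48 hr and −0.87 at 168 hr. With all probe sets of each gene averaged, these 2 genes did differ at 6 hr by the exact test (−0.64, adjusted p = 0.026). No pair differed at 24 hr. The part of the lower 0 cGy levels of Ebf1 and Bcl11a in these pair differences was not tested.

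Different probe sets of a gene did not all show the same size of change. For Ebf1 a second probe set differed between 600 and 0 cGy by −2.80, −2.62, −1.68, −1.52, −2.49 and −2.38 at the 6 times, close to the −2.24, −2.23, −2.01, −1.72, −2.81 and −2.64 of the one used, but larger in size at 6 and 24 hr and smaller at the other times. The third, dimmer one differed by −0.54, −0.79, −0.80, −0.43, −1.07 and −0.95. The second Bcl11a probe set, whose 0 cGy means were 4.33 to 4.74, differed by −0.35, −0.81, −0.77, −0.49, −0.98 and −0.62. All were lower, so the direction was shared by every probe set while the size was not. When all probe sets of a gene were averaged in place of taking the brightest, 9 of 24 comparisons with the surface mean and 18 of 36 pairs passed.

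The closeness of patterns was described by Pearson's r over the 48 group means of a set. These points share array runs and 0 cGy mice, and r is given with no test. Pou2af1 and Spib had r = 0.97 in the dose-time set and 0.96 in the sex and agent set, and Ebf1 and Bcl11a 0.93 and 0.94. Across these pairs r was lower in the dose-time set, at 0.60 for Pou2af1 with Ebf1 and 0.73 for Pou2af1 with Bcl11a, where the sex and agent set, with times of 6 and 24 hr, gave 0.86 and 0.85. Among all other genes, those most like Pou2af1 were Cd79b, which encodes a signalling chain of the B cell receptor (0.98), an immunoglobulin light chain segment, Igkv8-30 (0.98), the class II genes H2-Aa (0.98) and H2-Ab1 (0.97), and Cd74, the class II invariant chain (0.97). Those most like Spib were Cd79b (0.98), H2-Eb1 (0.98), Ms4a1, which encodes CD20 (0.97), H2-Ab1 (0.97) and Cxcr5, the receptor that leads B cells into follicles (0.97). Ebf1 was nearest to Cd55 (0.97), Fcrla (0.97), Zfp82 (0.96), the activation marker Cd83 (0.96) and Clec2i (0.95). Bcl11a was nearest to Cd22, an inhibitory coreceptor (0.97), Igkv6-14 (0.95), Tnfrsf13c, which encodes the BAFF receptor (0.95), Swap70 (0.95) and Trim7 (0.95). In the sex and agent set these r values were 0.90 to 0.97 for the Pou2af1 and Spib genes, 0.72 to 0.91 for the Ebf1 genes and 0.87 to 0.96 for the Bcl11a genes.

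Other regulators of the B lineage moved less evenly. Of 26 measured, 15 fell and 2 rose at 6 hr after 600 cGy, where 23.2% of all genes fell and 25.8% rose, with a median change of −0.74 where the median over all genes was 0.13. The strongest by p were Bach2, a repressor of plasma cell fate (−2.75 ± 0.32), Irf8 (−2.45 ± 0.29), Mef2c (−2.19 ± 0.30), Foxo1 (−1.41 ± 0.19), Ets1 (−2.70 ± 0.38) and Foxp1 (−2.58 ± 0.37). At 72 hr the same list was split, with 6 lower and 7 higher, where 31.3% and 25.6% of all genes were, and a median of 0.07 against −0.10. Spi1, which encodes PU.1 (1.91), Id2 (2.02), Stat5b (1.01), Runx1 (1.53) and Klf2 (1.50) were higher there, and Foxo1 was lower (−0.94). At 168 hr 12 were lower and 3 higher (median −0.40 against −0.07), where 21.7% and 20.3% of all genes were, led by Bcl6, the germinal centre repressor (−2.05), Bach2 (−2.30), Ets1 (−2.40), Myb (−1.48), Rel (−0.90) and Foxo1 (−0.95). Pax5 had an estimate of 0.18 ± 0.16 at 6 hr (adjusted p = 0.363). The 13 surface and receptor genes were lower in 13, 12, 10, 7, 12 and 12 cases over the 6 times, with medians of −2.81, −2.29, −1.40, −0.87, −1.70 and −1.36, and 1 was higher at 72 hr. Those with the smallest p at 6 hr were Cd22 (−3.54), Cd72 (−2.81), Cd79b (−4.92) and Fcer2a, the low-affinity IgE receptor (−2.91). The genes Ikzf3 and Aff3 were not analysed here.

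Markers of other cells that use these factors were read as well. Spib and Bcl11a also act in plasmacytoid dendritic cells, and of 8 measured markers of those cells 2 were lower at 6 hr after 600 cGy (Ccr9, −1.81, and Ly6d, −3.61, which B cells also carry) and 2 higher. The median change of these markers was 0.2, against 0.13 over all genes. Their mean level, which takes in Ccr9 and Ly6d, was 6.07 to 6.32 after 600 cGy and 6.60 to 6.69 at 0 cGy. Of 6 plasma cell markers 1 was lower and 1 higher, with means of 6.16 to 6.56 after 600 cGy and 6.42 to 6.49 at 0 cGy. All 6 T cell markers were lower (median −1.95) and all 5 neutrophil markers higher (2.0). None of the hepatocyte (median 0.75) or erythroid (−0.02) markers was called at 6 hr, and 3 markers of stromal cells, which also use Ebf1, were higher. At 168 hr all 5 hepatocyte markers were higher (median 8.32, with list means of 13.56 to 14.43 after 600 cGy and 5.30 to 6.69 at 0 cGy), 4 erythroid markers lower and 2 stromal markers higher. The part of these cells in the members' changes was not tested. The embryonic globin genes, which Bcl11a silences, were not called at 6 hr (Hbb-y 0.49, Hbb-bh1 0.45, Hba-x 0.46). At 168 hr Hbb-y was higher (1.01), Hba-x lower (−0.64) and Hbb-bh1 not called (−0.33).

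In the sex and agent set, dose slopes under no agent were averaged over females and males. At 6 hr they were −0.43 ± 0.08 for Pou2af1, −0.46 ± 0.05 for Spib, −0.32 ± 0.03 for Ebf1 and −0.35 ± 0.03 for Bcl11a, and at 24 hr −0.46, −0.46, −0.43 and −0.48. All 4 were called at both times, against 12.4% and 22.9% of genes called lower. The 600 minus 0 cGy differences at 6 hr were −2.59, −2.89, −1.97 and −2.28. These slopes run to 600 cGy and those of the dose-time set to 1050 cGy, so they are not compared.

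GCSF left the falls in place. Under GCSF the 6 hr slopes were −0.70 for Pou2af1, −0.62 for Spib, −0.45 for Ebf1 and −0.41 for Bcl11a, and the 24 hr slopes −0.47, −0.43, −0.36 and −0.34, all called, against 23.9% and 17.4% of genes. In males given GCSF and 600 cGy, Pou2af1 averaged 5.66 ± 1.94 at 6 hr (SD, n = 5), against 9.26 ± 0.21 in their 0 cGy males. No slope differed between GCSF and no agent in limma's test (3 members at 6 hr and 1 at 24 hr at an unadjusted p under 0.05), where 0.0161% and 0.00807% of genes' slopes did in either direction. The slope under GCSF minus that with no agent was −0.28 ± 0.11 for Pou2af1 (adjusted p = 0.597), −0.16 for Spib, −0.13 for Ebf1 and −0.06 for Bcl11a at 6 hr, and −0.01, 0.03, 0.07 and 0.14 at 24 hr. At 0 cGy none of the 4 differed between GCSF and no agent at 6 hr (0.43, 0.16, 0.42 and 0.10, with 1 at an unadjusted p under 0.05), nor did any of the 12393 genes (283 unadjusted). At 24 hr none was called either, and the nearest was Bcl11a (−0.72, adjusted p = 0.0548), where 0.218% of genes were called lower. A miss of the threshold does not show that the agents act alike.

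In the sex and agent set all 4 regulators were lower under LPS at 24 hr without irradiation, Bcl11a by the most. At 24 hr and 0 cGy, Bcl11a read 4.24, 4.36, 4.45 and 4.92 in LPS females, against 6.81, 7.07, 7.20, 7.65 and 7.84 in females with no agent. In LPS males it read 4.02, 4.81, 5.42, 5.50 and 6.03, against 7.61, 8.17, 8.29, 8.37 and 8.40 in males with no agent. No LPS mouse of either sex reached the mice with no agent. The difference averaged over the sexes was −2.92 ± 0.21 (adjusted p = 5.03e-28). All 4 members were called lower at 24 hr, against 12.7% of genes, with Pou2af1 at −2.24 ± 0.49 (adjusted p = 1.08e-04), Spib at −2.63 ± 0.33 and Ebf1 at −2.0 ± 0.22.

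The other members overlapped little under LPS at 24 hr. Spib read 5.83, 6.14, 6.33 and 6.53 in LPS females and 6.68, 7.08, 7.85, 8.05 and 8.37 in LPS males, against 8.92 to 9.75 in females and 9.22 to 9.89 in males with no agent. Pou2af1 read 7.27, 7.31, 7.48 and 8.06 in LPS females, against 9.54 to 10.32 with no agent, and 6.66, 6.81, 7.51, 8.98 and 9.54 in LPS males, against 9.68 to 10.46 with no agent. Ebf1 overlapped in females, where an LPS mouse at 6.42 stood beside a mouse with no agent at 6.41, and not in males (4.70 to 6.88 under LPS, against 7.08 to 8.52 with no agent). At 6 hr Spib (−1.75 ± 0.35, adjusted p = 1.91e-05), Ebf1 (−1.02 ± 0.23, 1.63e-04) and Bcl11a (−1.67 ± 0.22, 6.05e-11) were already lower under LPS at 0 cGy, and Pou2af1 was not called (−0.80 ± 0.51, 0.197), against 20.5% of genes.

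Under LPS the dose slopes of Ebf1 and Bcl11a were shallower than with no agent. Both genes were already lower under LPS at 0 cGy, which left less room on the scale for a fall with dose. How far this shaped the slopes was not tested. The slope of Bcl11a under LPS was −0.02 at 6 hr (adjusted p = 0.668) and −0.07 at 24 hr (0.184), and that of Ebf1 −0.11 (0.0127) and −0.14 (0.00264), while Pou2af1 had −0.41 and −0.41 and Spib −0.26 and −0.37. Thus 3 of 4 were called at both times, against 15.8% and 9.80% of genes. The Ebf1 slope at 6 hr was lost without mouse 3 of each group (−0.08, adjusted p = 0.201). The slopes under LPS and no agent differed by 0.33 ± 0.05 for Bcl11a (adjusted p = 4.47e-08) and 0.20 ± 0.05 for Ebf1 (0.00406) at 6 hr, against 2.49% of genes with a higher slope under LPS. At 24 hr they differed by 0.41 ± 0.05 for Bcl11a (1.30e-12) and 0.29 ± 0.05 for Ebf1 (1.68e-06), against 7.42%. Those of Pou2af1 and Spib did not pass at either time (0.02 and 0.20 at 6 hr, 0.06 and 0.09 at 24 hr). The Spib difference at 6 hr was as large as that of Ebf1, with a wider error (0.20 ± 0.08, adjusted p = 0.0953). The Ebf1 difference at 6 hr lay at an adjusted p of 0.05 without mouse 2 of each group.

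The level of Bcl11a under LPS was almost the same after 600 cGy as at 0 cGy at 6 hr. At 6 hr LPS females averaged 6.28 ± 0.52 after 600 cGy (n = 5) and 6.28 ± 0.24 at 0 cGy (n = 3), and LPS males 4.80 ± 0.30 after 600 cGy and 4.85 ± 0.23 at 0 cGy (n = 5 each). With no agent females averaged 5.31 ± 0.85 after 600 cGy and 7.82 ± 0.33 at 0 cGy, and males 4.60 ± 0.20 after 600 cGy and 6.65 ± 0.62 at 0 cGy (n = 5 each). Among irradiated mice at 6 hr Bcl11a was therefore higher under LPS than with no agent, by 0.53 at 200 cGy (adjusted p = 0.0428), 0.64 at 300 cGy (0.0163) and 0.58 at 600 cGy (0.0102). It was the 1 member of 4 called at each, against 12.4%, 4.49% and 32.5% of genes called higher. These calls were lost without mouse 1, 2, 3 or 4 of each group at 200 cGy (adjusted p up to 0.162), mouse 1 or 5 at 300 cGy (up to 0.129) and mouse 2, 4 or 5 at 600 cGy (up to 0.0797), and at 200 cGy also after quantile normalisation (0.0697) and without high Alb (0.0775). At 24 hr all 4 members were lower under LPS than under no agent at 200 and at 300 cGy, against 16.3% and 13.1% of genes, and so were Pou2af1 (−2.05) and Spib (−2.12) at 600 cGy, against 12.7%. Of the 24 hr calls, Ebf1 at 200 cGy was lost without mouse 3 of each group (adjusted p = 0.0778), and at 300 cGy Bcl11a without mouse 4 (0.0587), Ebf1 without mouse 3 or 4 (0.098 and 0.0967) and Pou2af1 without mouse 1, 3, 4 or 5 (up to 0.17). Without high Alb, Ebf1 at 200 cGy (−0.61, 0.0835) and Pou2af1 at 300 cGy (−1.60, 0.0564) were lost. At 600 cGy and 24 hr Ebf1 (−0.17, adjusted p = 0.595) and Bcl11a (−0.30, 0.262) were not called.

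**Figure D3:**
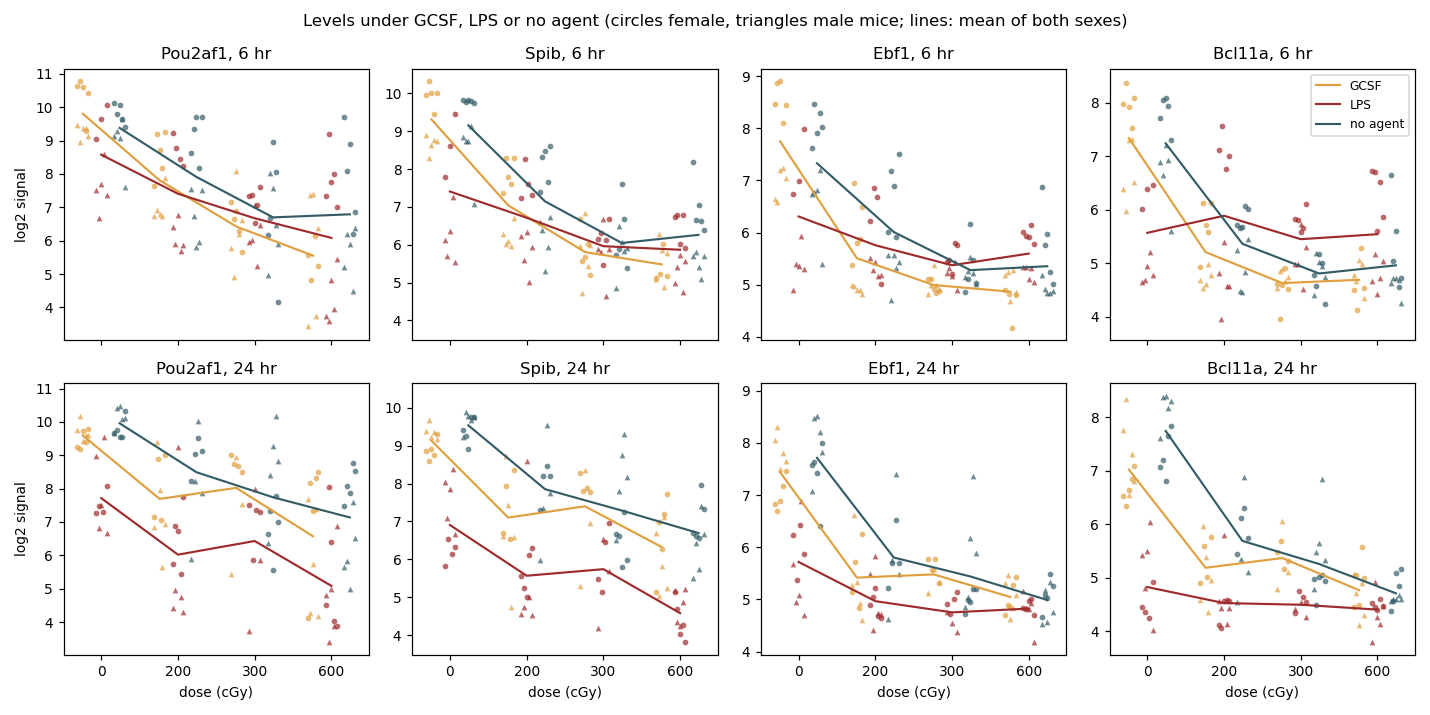
Levels (log2 signal) of the 4 genes against dose (0, 200, 300 and 600 cGy) at 6 and 24 hr in the sex and agent set, for GCSF, LPS and no agent. Circles are single females, triangles single males, and lines the mean of both sexes; at 24 hr and 0 cGy Bcl11a differs by −2.92 between LPS and no agent.

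Other B lineage genes moved with LPS at 0 cGy in the sex and agent set. Of the 26 other regulators 8 were lower and 5 higher at 6 hr (median −0.16 against 0.06 for all genes) and 11 lower and 4 higher at 24 hr (−0.26 against 0.02). Over all 12393 genes 20.5% and 12.7% were called lower at these times, and 4368 and 2708 genes were called in either direction. At 24 hr Bach2 (−2.38), Foxo1 (−1.36), Lef1 (−1.31), Id3 (−1.63), Mef2c (−1.89) and Ets1 (−2.07) were lower, and at 6 hr Myb was higher (1.20). All 13 surface genes were lower at both times, with medians of −1.55 and −2.35. T cell markers were lower in 6 of 6 and neutrophil markers higher in 3 of 5 at 6 hr and 5 of 5 at 24 hr, while no hepatocyte marker changed. Their part in the members' changes was not tested.

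Females and males with no agent and 0 cGy differed at 6 hr. Ebf1 read 7.62, 7.92, 8.02, 8.30 and 8.47 in females, against 5.40, 6.75, 6.78, 6.82 and 7.21 in males, a female minus male difference of 1.47 ± 0.30 (adjusted p = 1.41e-04). Bcl11a read 7.30, 7.72, 7.94, 8.05 and 8.09 in females, against 5.60, 6.64, 6.89, 6.92 and 7.21 in males (1.17 ± 0.28, adjusted p = 0.00145). Females were above all males for both genes. Spib read 9.75 to 9.83 in females, against 7.08 to 9.15 in males (1.29 ± 0.45, adjusted p = 0.0268), and Pou2af1 9.41 to 10.12 in females, against 7.60 to 9.64 in males, with overlap (0.86 ± 0.67, adjusted p = 0.295). The 3 of 4 called, all higher, stand against 27.8% of genes called in either direction. The lowest male, mouse 5, had Alb at 12.62, and without it Spib was not called (0.93, adjusted p = 0.162) while Ebf1 and Bcl11a were. Spib was also lost without mouse 2 of each group (adjusted p = 0.0688) and after quantile normalisation (0.115).

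The sex difference was not seen at 24 hr. There the female minus male differences were −0.39 for Pou2af1, −0.25 for Spib, −0.61 for Ebf1 and −0.86 for Bcl11a, none called (adjusted p = 0.665 for Bcl11a, 2 members at an unadjusted p under 0.05), where 0.0726% of genes were called in either direction. Whether the 6 and 24 hr differences differ from each other was not tested. No member's dose slope differed between the sexes at 6 hr, where 10.3% of genes' slopes did, or at 24 hr, where 0 of 12393 did in limma's test. At an unadjusted p under 0.05 these were 0 members at 6 hr, and 2 members and 296 genes at 24 hr. At 6 hr and 0 cGy the other regulators were higher in females in 13 of 26 cases and lower in 1, with a median of 0.66 against −0.09 for all genes. Of all genes 27.8% were called in either direction there. They included Lef1 (1.84), Foxo1 (1.58), Bach2 (2.08), Foxp1 (1.95), Tcf4 (1.22) and Zbtb7a (1.11). T cell markers were higher in 3 of 6, and the hepatocyte markers had a median difference of −2.23 with 1 called lower, and their part was not tested.

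The small agent set, bled at 6 hr, gave smaller differences from 0 cGy than the other sets under no agent. A mouse with no agent and 0 cGy, number 10, stood far below the others, at 6.94 for Pou2af1, 6.45 for Spib, 5.17 for Ebf1 and 4.66 for Bcl11a, with Alb at 13.39. The other 5 read 9.43 to 9.77, 8.93 to 9.95, 6.38 to 7.34 and 6.49 to 7.62. With it, the 600 minus 0 cGy differences were called for Spib (−1.31, adjusted p = 0.0175) and Ebf1 (−1.13, 0.0128) but not for Pou2af1 (−0.77) or Bcl11a (−1.06, 0.0547), 2 of 4 against 1.86% of genes. Spib was lost without mouse 1, 3, 4 or 5 of each group by order of number (adjusted p up to 0.243) and Ebf1 without mouse 1, 4 or 5 (up to 0.217), and both with only the groups compared (0.234 and 0.14). At 150 cGy none of the 4 was called (−0.60, −1.08, −0.88 and −0.86), against 1.07% of genes, though 3 had an unadjusted p under 0.05. Without mouse 10, an alternative chosen after the data had been seen, all 4 were called at both doses.

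Under GCSF and under LPS all 4 members were lower at 600 cGy in this set. Under GCSF and 600 cGy Bcl11a averaged 4.78 ± 0.23 (n = 5), against 7.64 ± 0.47 at 0 cGy (n = 6), and all 4 members were called, by −2.29 for Pou2af1, −2.79 for Spib, −1.91 for Ebf1 and −2.86 for Bcl11a, against 14.1% of genes. Without mice whose Alb was at 10 or more, Pou2af1 (−0.41, adjusted p = 0.729) and Ebf1 (−0.54, 0.484) were not called. Under LPS and 600 cGy Spib averaged 6.08 ± 0.53, against 9.11 ± 0.27 at 0 cGy (n = 6 each), and again all 4 were called (−2.55, −3.02, −1.42 and −1.05), against 9.55%. The Bcl11a call under LPS was lost without mouse 1, 2 or 5 of each group (adjusted p = 0.11, 0.0738 and 0.153). At 150 cGy Bcl11a was called under GCSF (−1.44, adjusted p = 0.0187), against 0.807% of genes, but without mouse 1, 2, 3, 4 or 5 of each group it was not, with adjusted p of 0.0565 to 0.142. Under LPS at 150 cGy Pou2af1 (−1.65, adjusted p = 0.0174) and Spib (−1.70, 0.00427) were called, against 2.40%, and Pou2af1 was lost without mouse 1, 4 or 5 and Spib without mouse 1. At 600 cGy Pou2af1 (−1.58, adjusted p = 0.00213) and Spib (−1.55, 6.84e-04) were lower under LPS than with no agent, against 24.1% of genes, and Ebf1 (−0.49) and Bcl11a (−0.31) were not called. At 0 cGy none of the 4 differed between LPS and no agent here (0.20, 0.17, −0.21 and −0.32, 0 at an unadjusted p under 0.05), against 26.2% of genes called in either direction. Of the 13 surface genes 3 were lower there (median −0.46), and of the 26 other regulators 3 were lower and 7 higher. Under LPS at 0 cGy and 6 hr in the sex and agent set these were 13 surface genes lower, and 8 regulators lower and 5 higher. None of the 4 members differed between GCSF and no agent at 0, 150 or 600 cGy (1, 0 and 3 at an unadjusted p under 0.05), against 0.549%, 0.0726% and 0.258% of genes called in either direction.

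A week after 150 cGy all 4 regulators were still low. In the 7 day set Pou2af1 averaged 8.83 ± 0.48 after 150 cGy (SD, n = 10) and 10.40 ± 0.25 at 0 cGy (n = 3), a difference of −1.58 ± 0.25 (SE, adjusted p = 7.28e-05). Spib averaged 8.27 ± 0.40 after 150 cGy and 10.00 ± 0.26 at 0 cGy (−1.73 ± 0.22, adjusted p = 1.17e-05). Ebf1 averaged 5.83 ± 0.44 after 150 cGy and 8.0 ± 0.12 at 0 cGy (−2.16 ± 0.25, adjusted p = 6.22e-06). Bcl11a, with the largest difference of the 4, averaged 5.55 ± 0.44 after 150 cGy and 8.13 ± 0.26 at 0 cGy (−2.58 ± 0.23, adjusted p = 6.24e-07). No group overlapped: the highest irradiated mouse read 9.30, 8.78, 6.60 and 6.11 for the genes in this order, and the lowest 0 cGy mouse 10.21, 9.83, 7.87 and 7.94. The 4 of 4 called lower stand against 33.3% of genes.

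**Figure D4:**
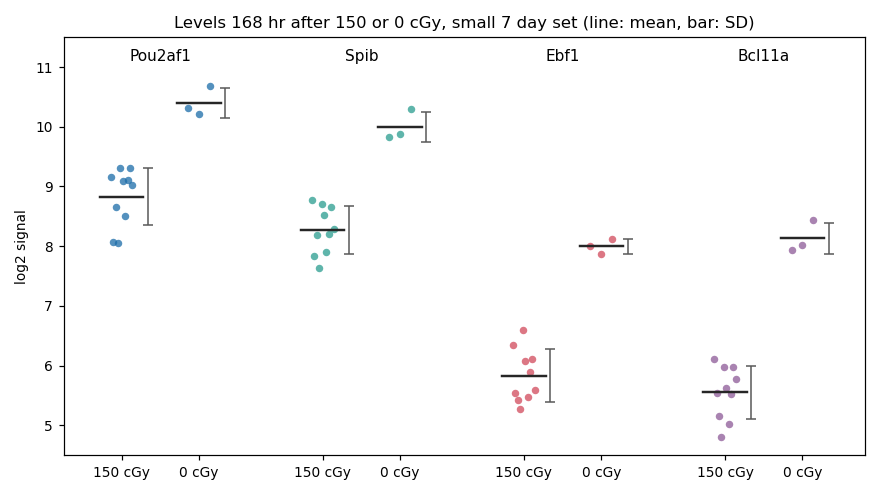
Levels (log2 signal) of the 4 genes in the 7 day set, 168 hr after 150 cGy (10 mice) and 0 cGy (3 mice), with each mouse as a point, the group mean as a line and 1 SD as a bar. All mice after 150 cGy are below all mice after 0 cGy, for Bcl11a at a mean of 5.55 after 150 cGy, against 8.13 after 0 cGy.

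Related genes in the same mice fell alongside, where 33.3% of all genes were called lower. Of the 26 other regulators 18 were lower and 2 higher after 150 cGy, with a median of −0.88 against 0.09 for all genes, among them Id3 (−1.84), Tcf3, the E protein that acts beside Ebf1 in B cell specification (−1.66), Foxp1 (−2.05), Relb (−1.37), Bach2 (−1.89) and Ets1 (−1.76). All 13 surface genes were lower (median −2.04). The 3 embryonic globin genes were higher, Hbb-y by 1.78, Hbb-bh1 by 1.54 and Hba-x by 0.84, together with all 5 erythroid markers. T cell markers were lower in 6 of 6 and hepatocyte markers higher in 4, and the part of these cells was not tested.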

How the data were processed

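The authors deposited log2 signals for each probe set, made with RMA in the affy package per the submitters' processing notes, with no version given. Whether the arrays of the 4 sets were normalised together is not given in the sources used here. Of 22690 probe sets, 64 control ones, 1555 with no symbol and 691 with several were left out, and 20380 stood for 12393 genes. The 2 repeat scans of single mice were averaged with their first. A model of group means was fitted to each set in limma 3.58.1 (R 4.3.3, with version 1.17.8 of data.table), using eBayes and Benjamini-Hochberg adjustment over all 12393 genes and a threshold of an adjusted p of 0.05 (192, 178, 41 and 14 residual degrees of freedom). A dose slope is the least-squares slope of group means per 100 cGy. Exact permutation tests used scipy 1.17.1, and tables and plots numpy 2.4.6, pandas 2.3.3 and matplotlib 3.10.9 under Python 3.11.15. The number of mice per group sets the precision.

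The named genes were the 4 members, the 5 genes with the highest r to each, up to 6 other regulators and 4 surface genes with the smallest p in a comparison, the embryonic globin genes and Alb. Ccr9 and Ly6d were named after their values had been seen. The members and lists were chosen with earlier results of these data known. On simulated slopes at 6 hr over 12393 genes, 96% of those of −0.1 and 100% of those of −0.3 were recovered. Mice of the same number did not deviate together (mean r 0.02, 0.04, 0.06 and −0.13 in the sets), so the numbers were not taken to pair mice. The array run was read from the middle part of the code in the titles, which the titles do not explain. The alternatives were array run or mouse number as a block, only the groups compared, dim genes (mean under the 30th percentile) left out, the mean of probe sets, quantile normalisation, median centring, the first scan alone, log2 of dose plus 50 cGy, a trended and robust prior, and each fit without 1 mouse per group. Others left out mice with Alb at 10 or more or single low mice.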

Additional observations from a re-analysis of the deposited data

Results flagged for a closer look

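A mouse was looked for that stood apart from its group of 4 to 10 by Dixon's criterion. Of 412 tests of a member in a group, 37 (8.98%) met it, 26 with a low and 11 with a high mouse, in 25 mice, and chance gives about 1 in 20. In 8 mice more than 1 member stood apart.

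In the dose-time set, mouse 5 at 200 cGy and 48 hr was low for Pou2af1 (5.272), Ebf1 (4.536) and Spib (4.856). Mouse 7 at 200 cGy and 72 hr was low for Pou2af1 (7.274), Spib (6.300) and Bcl11a (4.790). Mouse 6 at 300 cGy and 72 hr was low for Pou2af1 (4.369) and Spib (4.239), and mouse 10 at 800 cGy and 24 hr for Pou2af1 (5.298) and Spib (5.187). Single members stood apart for mouse 5 at 0 cGy and 6 hr (Bcl11a, 6.404), mouse 1 at 1050 cGy and 6 hr (Pou2af1, 5.944), mouse 5 at 200 cGy and 168 hr (Spib, 9.218) and mouse 3 at 200 cGy and 6 hr (Ebf1, 6.046). The others were mouse 5 at 300 cGy and 168 hr (Ebf1, 5.983), mouse 4 at 300 cGy and 48 hr (Pou2af1, 4.871) and mouse 3 at 600 cGy and 48 hr (Spib, 6.397).

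In the sex and agent set, male mouse 5 with no agent at 0 cGy and 6 hr was low for Pou2af1 (7.598), Ebf1 (5.402) and Spib (7.084). Male mouse 3 under LPS at 200 cGy and 24 hr was high for Pou2af1 (9.249), Spib (8.587) and Bcl11a (5.798). Female mouse 3 under GCSF at 600 cGy and 6 hr was apart for Ebf1 (4.176) and Spib (6.025). Pou2af1 stood apart under GCSF in female mouse 4 at 0 cGy and 6 hr (9.279), male mouse 5 at 200 cGy and 6 hr (7.870) and female mouse 1 at 600 cGy and 24 hr (4.129), and under LPS in female mouse 2 at 300 cGy and 24 hr (5.857). With no agent, Ebf1 stood apart in male mouse 2 at 200 cGy and 6 hr (4.715) and male mouse 1 at 600 cGy and 6 hr (5.190), and Bcl11a in female mouse 2 at 300 cGy and 24 hr (4.481) and male mouse 5 at 600 cGy and 6 hr (4.258). In the small agent set, mouse 10 with no agent at 0 cGy was low for Pou2af1 (6.941) and Spib (6.445), mouse 4 under GCSF at 0 cGy for Pou2af1 (8.098), and mouse 4 under LPS at 150 cGy was high for Spib (8.262).

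Effects that differed between groups by a test of the difference were the dose slopes between the 6 times, with F = 9.38 for Pou2af1, 10.0 for Ebf1, 2.34 for Spib and 4.03 for Bcl11a. The others were the slopes under LPS minus no agent, by 0.203 for Ebf1 and 0.334 for Bcl11a at 6 hr and by 0.288 for Ebf1 and 0.411 for Bcl11a at 24 hr.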

How the results depend on the processing

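Of 638 recomputed counts for 43 results, 592 stayed within 1.5 times the reported count and 46 moved. Of 7464 recomputed values for 528 single results, 6871 kept their direction and their side of the threshold, 351 lost the call, 109 gained one, 127 without a call moved and 6 reversed. Leaving out 1 mouse of every group gave 0 to 21 pair differences and 0 differences from the surface mean, since 4 mice against 4 cannot go below a p of 0.0286. It gave 126 to 139 falls in the dose-time set, 16 to 22 falls between 1050 and 100 cGy, 2 to 4 members with slopes that differ between times, 3 to 4 falling slopes at 24 and at 168 hr, 2 to 3 under LPS at 6 hr and 1 to 2 slope differences under LPS at 6 hr. At 0 cGy it gave 2 to 3 sex differences at 6 hr, 0 to 1 member differing under GCSF at 24 hr and 0 to 1 under LPS in the small agent set. In that set the members lower at 150 cGy were 0 to 3 under GCSF, 0 to 2 under LPS and 0 to 4 with no agent, and at 600 cGy 3 to 4 under LPS and 0 to 4 with no agent. All other counts were the same in these fits, at 4 (slopes at 6, 48, 72 and 120 hr, slopes with no agent and GCSF, LPS at 0 cGy and 24 hr, GCSF at 600 cGy in the small agent set, and the 7 day set), 3 (LPS at 0 cGy and 6 hr, LPS slope at 24 hr), 2 (LPS at 600 cGy in the small agent set, 0 cGy levels between times, LPS slope difference at 24 hr) or 0 (the rest).

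Among the other settings, the members called at 0 cGy and 24 hr under GCSF were 1 without dim genes, 1 after median centring and 3 with only the groups compared. With the mouse number as a replicate block, 1 member differed under LPS at 150 cGy in the small agent set, 2 were lower at 150 cGy under GCSF and 3 with no agent, and the block moved no other count. At 150 cGy under GCSF in that set 2 were lower without dim genes, with the mean of probe sets, with only the groups compared and after quantile normalisation, and 3 without the low 0 cGy mouse. With no agent 1 was lower at 150 cGy with the mean of probe sets, 2 without high Alb and 4 without the low mouse, and at 600 cGy 0 with only the groups compared and 4 without the low mouse. Without high Alb, 1 member differed under GCSF at 0 cGy there and 2 were lower at 600 cGy under GCSF. The 0 cGy level differed between times in 4 members with only those groups in the fit. Reversed were Bcl11a relative to the surface mean at 168 hr (0.50 with the mean of probe sets, 0.32 after quantile normalisation) and 48 hr (0.34 after quantile normalisation), Ebf1 at 120 hr (0 with the mean of probe sets), Spib against the 4 markers at 6 hr (0.15) and Ebf1 under GCSF at 0 cGy in the small agent set without high Alb (−1.21). The causes were not tested. A run block could not be fitted in the small sets, which hold 1 run each, and 5 within-run differences of the relative changes cannot go below a p of 0.0625. A slope difference between times could not be fitted without high Alb, since late groups above 300 cGy lose all mice. Dim genes left out, the prior, the blocks and the fitted groups do not enter the permutation tests. Low signal of Ebf1 and Bcl11a limits how large a fall could show.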
